A study of Mus musculus with 4 samples.

Results

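Macrophages sense microbial molecules through Toll-like receptors and answer largely through the transcription factor NF-kB. The genes described here code for the receptors, adaptors, kinases, NF-kB subunits and feedback inhibitors of that route. They were a list of 44 genes, chosen with earlier results of these data known. Expression was measured by microarray in mouse peritoneal macrophages kept with palmitic, oleic or linoleic acid or with vehicle. A probe assigned to exactly 1 gene was present for 39 of the 44, out of 19938 genes so measured in the series, and each of the 39 had 1 probe. The other 5, Tlr5, Irak4, Traf3, Chuk and Nfkb1, are not analysed here.

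All groups were peritoneal macrophages of wild type C57BL/6 mice aged 8 to 12 weeks, collected 3 days after 1 mL of 4% thioglycolic acid was injected into the peritoneum, and non-adherent cells were washed off. They were exposed for 6 h to 500 µM of a fatty acid bound to bovine serum albumin (BSA). Palmitic acid is saturated with a chain of 16 carbons, while the chains of oleic and linoleic acid have 18, with 1 and 2 double bonds. The control, at 0 µM, is labelled BSA alone, while the protocol describes a vehicle of ethanol and KOH. RNA of 3 samples was pooled per group for 1 array, so there are 4 arrays, no replicates, and no test or interval for any difference below. The labels do not say whether pooled samples came from separate mice.

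As background, a ligand-bound receptor recruits the adaptor MyD88, which acts through IRAK proteins, or, at some receptors, TRIF. Both pass the signal through TRAF proteins and the kinase TAK1 to the IkB kinase complex. That complex marks IkB proteins for destruction, which frees NF-kB dimers to enter the nucleus. Several NF-kB targets, such as IkB alpha and A20, in turn shut the signal off. Saturated fatty acids have long been studied as possible triggers of this route in macrophages, with TLR4 and TLR2 at the centre of that work.

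Values are on a log2 scale, on which a difference of 1 is a 2-fold change. A gene was counted as apart at 1.5-fold (0.58 in log2) and at a lenient threshold of 0.32 in log2, beside the share of all 10753 genes whose mean over the 4 arrays reached the median of all values, log2 7.09. All 39 measured members were above that floor, with values from 8.27 to 13.1. The value of a probe depends on its own binding as well as on the transcript, so levels of different genes are not ranked. Array pairs correlated at r = 0.991 to 0.996 over all probes.

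The macrophage label was checked against marker genes. Of 10 macrophage markers 9 were measured, among them Cd68 (13.63 to 13.69 over the 4 arrays), Lyz2 (13.85 to 13.92) and Adgre1 (12.83 to 13.00), and their summed signal, which the brightest markers dominate, was 51430 in the control, 51460 with palmitic, 53560 with oleic and 51740 with linoleic acid. Not all were steady: Fcgr1, which codes for a high-affinity IgG receptor, lay at 10.69, 10.03, 11.34 and 10.86 in that order, Mertk, which codes for a receptor for dying cells, was 0.51 above the control with palmitic acid, and Cd163, a marker of some resident macrophages, was below the floor in all arrays (5.85 to 5.98). The 10 markers of mesothelial cells and fibroblasts summed to 4587, 3813, 4508 and 4817 in the same order, and 8 of the 10 were lower with palmitic acid than in the control. Of the 10, 6 reached the floor. Pdgfra differed most with palmitic acid, at -0.86, while Msln, Upk3b, Krt19 and Wt1 differed by -0.15, -0.07, 0.03 and -0.26. Neutrophil markers summed to 1168, 1040, 1203 and 1079, with 5 of 6 lower with palmitic acid and 2 of 6 reaching the floor. Of the B cell, T and NK cell, dendritic cell, mast cell and eosinophil markers, 1 of 4, 1 of 7, 2 of 6, 1 of 6 and 1 of 5 measured reached the floor. Relative to the control, their summed signals with palmitic acid were 1.00, 0.983, 0.939, 0.902 and 0.956. Relative to the control, the summed signal with palmitic acid was thus lowest for the joint mesothelial and fibroblast list (0.831), then the neutrophil list (0.89) and the mast cell list (0.902). In the mast cell list 3 of 6 markers were lower with palmitic acid, Kit most at -0.45, and the list median was -0.0079. The part of these lower summed signals in the lower values below was not tested. No marker is at 0, because these values have no true zero. In such bulk RNA, fewer cells of a type and less RNA per cell cannot be told apart.

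The comparison of palmitic acid with the control asked how a saturated fatty acid alters the cells. In the palmitic acid array Ticam1, which codes for the adaptor TRIF, was 1.82-fold higher, while Ticam2, which codes for TRAM, the bridge between TLR4 and TRIF, was 1.57-fold lower. The endosomal receptor gene Tlr8 was 1.54-fold lower. Thus 1 member was at least 1.5-fold higher, beside 2.19% of all genes, and 2 were at least 1.5-fold lower, beside 1.39%. At the lenient threshold 3 members were higher (Ticam1, Tollip and Tab3), 7.69% of the 39 beside 8.84% of all genes, and 7 were lower (Ticam2, Tlr8, Tlr6, Tnip3, Tlr1, Ikbkb and Irak3), 17.9% beside 5.47%. Just outside lay Ikbkg at 0.31 and Cd14 at -0.26. The median member difference was -0.10, beside 0.0038 over all genes, and 27 of 39 members were below the control, beside 49.2% of all genes (29 members, beside 57.7%, after repeated quantile normalisation). Over all genes the lenient count leans up, with 61.8% of genes beyond the lenient threshold higher, but 46.9% after a repeated quantile normalisation. The members then numbered 2 higher, beside 6.65% of all genes, and 7 lower, beside 7.52%.

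Oleic and linoleic acid left the same genes closer to the control. With oleic acid 0 members were 1.5-fold higher or lower, beside 0.391% and 0.335% of all genes. At the lenient threshold 0 were higher (2.35% of all genes) and 1 was lower, Tlr6 at -0.35, beside 1.45%. Nfkbiz at -0.32 lay just outside. With linoleic acid 0 members passed 1.5-fold either way, beside 0.0372% of all genes higher and 0.0372% lower, and 0 passed the lenient threshold, beside 1.14% and 0.474%. Higher genes were 50% of those beyond 1.5-fold with linoleic acid, 28.6% after median centring and 22.2% after repeated quantile normalisation. At the lenient threshold these shares were 70.7%, 46.0% and 34.8%. The 3 comparisons share 1 control array, so a high or low control value enters all of them.

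**Figure D1:**
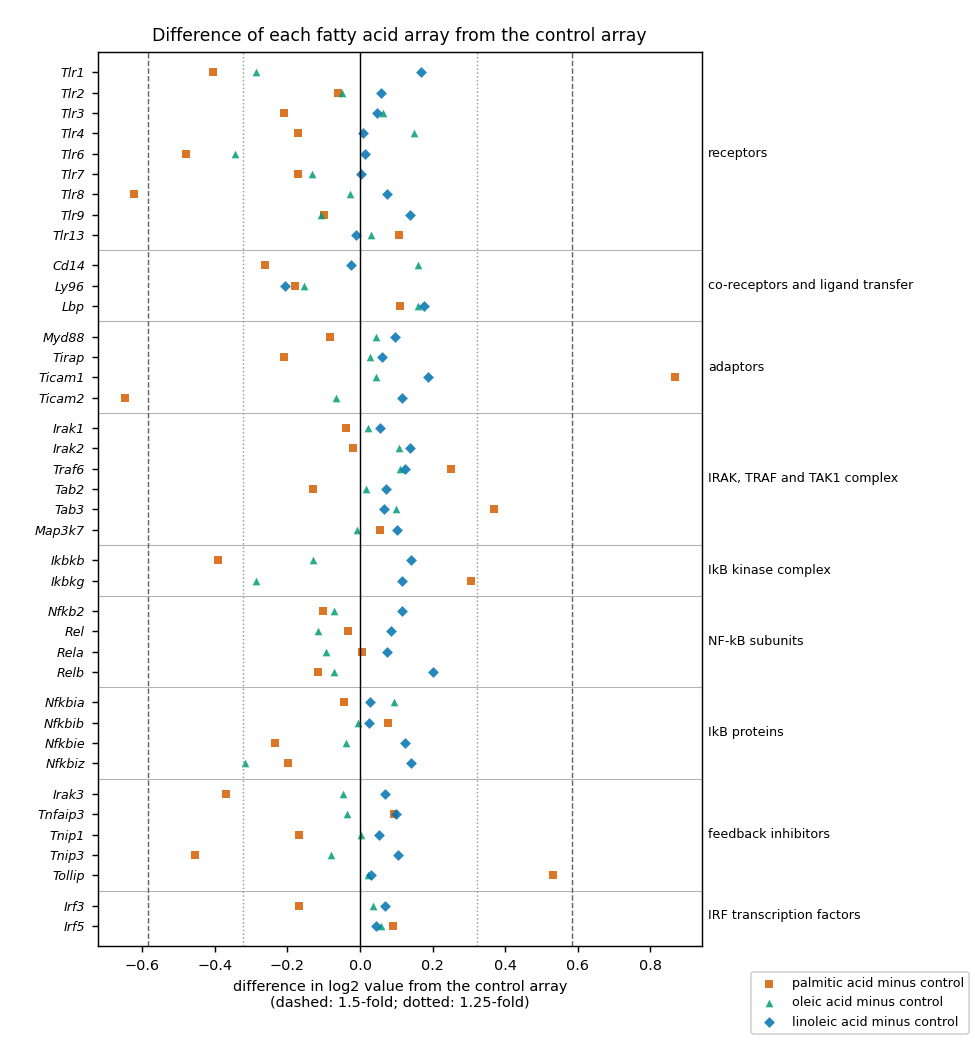
Difference in log2 value from the control array (x axis) for each of the 39 measured genes, grouped by role, with squares for palmitic, triangles for oleic and diamonds for linoleic acid; dashed lines mark 1.5-fold and dotted lines the lenient threshold, and each point is a difference of 2 arrays. Palmitic acid holds every point beyond 1.5-fold, Ticam1 at 0.87, Ticam2 at -0.65 and Tlr8 at -0.62, while oleic and linoleic acid lie between -0.35 and 0.20.

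Among the receptors, 8 of 9 measured genes were lower with palmitic acid than in the control, with a median of -0.17, beside 49.2% of all genes below the control. The count was again 8 after median centring (beside 47.3%) and after repeated quantile normalisation (beside 57.7%). With oleic acid 6 of the 9 were below the control, beside 44.5% of all genes, and with linoleic acid 1, beside 34.4%. Tlr8 lay at log2 12.68 in the control, 12.05 with palmitic, 12.65 with oleic and 12.75 with linoleic acid. Only the palmitic acid value stands off, and the other 3 lie within 0.10 of each other. Tlr7, its neighbour on the X chromosome and a receptor for single-stranded RNA, had a palmitic acid difference of -0.17 and an oleic acid difference of -0.13.

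Tlr1 and Tlr6 code for the partners with which TLR2 recognises bacterial lipopeptides. Tlr1 lay at 11.69 in the control, 11.29 with palmitic, 11.40 with oleic and 11.86 with linoleic acid. Tlr6 lay at 9.93, 9.45, 9.59 and 9.95 in the same order. In both genes palmitic and oleic acid were the low arrays, and control and linoleic acid the high ones. These genes are neighbours in the RefSeq gene table and similar in sequence, so their probes may share transcripts and the pair may not be independent. Tlr2 itself, the common partner, lay at 12.63 in the control, 12.57 with palmitic, 12.58 with oleic and 12.68 with linoleic acid, a spread of 0.12.

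Tlr4, the lipopolysaccharide receptor, lay at 9.10 in the control, 8.93 with palmitic, 9.25 with oleic and 9.11 with linoleic acid. Palmitic acid was the lowest and oleic acid the highest array, 0.32 apart. Cd14, which codes for the co-receptor that hands lipopolysaccharide to TLR4, lay at 12.83 in the control, 12.57 with palmitic, 12.99 with oleic and 12.80 with linoleic acid. Its 2 extremes were again palmitic and oleic acid, 0.42 apart. Ly96, which codes for the TLR4 partner MD-2, was below the control by a similar amount in all fatty acid arrays, at -0.18, -0.16 and -0.21. Lbp, which codes for a lipopolysaccharide carrier of serum, was above it in all, at 0.11, 0.16 and 0.18.

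The remaining receptors recognise nucleic acids in endosomes. Tlr3, for double-stranded RNA, differed from the control by -0.21 with palmitic, 0.06 with oleic and 0.05 with linoleic acid. Tlr9, for unmethylated CpG DNA, gave -0.10, -0.11 and 0.14. Tlr13, for bacterial ribosomal RNA, was the only receptor above the control with palmitic acid, at 0.11, with 0.03 and -0.01 in the other arrays.

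**Figure D2:**
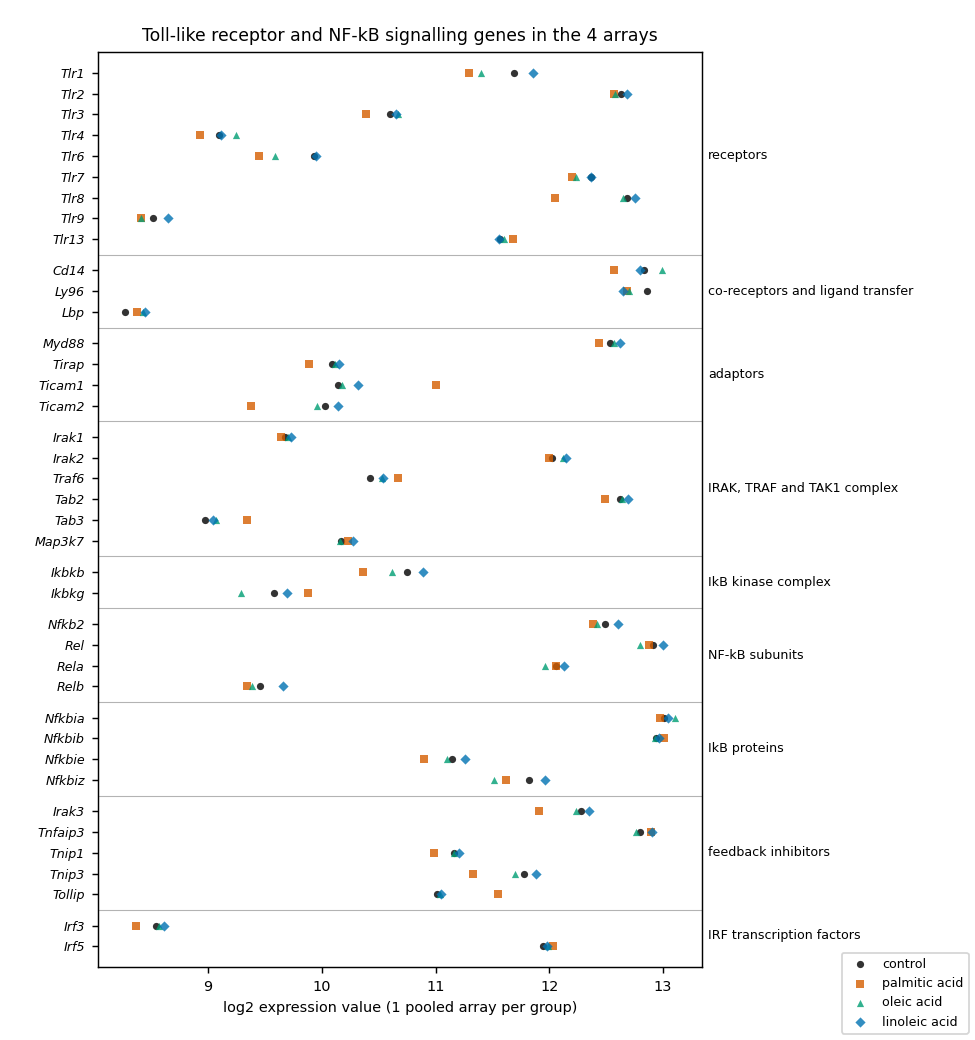
The log2 expression value (x axis) of each of the 39 measured genes in the control (circles), palmitic (squares), oleic (triangles) and linoleic acid (diamonds) arrays, grouped by role, with 1 pooled array per group and no error bars. Most genes hold 4 nearly coincident points, and the palmitic acid square stands off for Ticam1 (11.00, beside 10.14 to 10.32), Ticam2 (9.38, beside 9.96 to 10.14), Tlr8 and Tollip.

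The 4 adaptors showed the largest range of palmitic acid differences. Ticam1 lay at 10.14 in the control, 11.00 with palmitic, 10.18 with oleic and 10.32 with linoleic acid. Ticam2 lay at 10.03, 9.38, 9.96 and 10.14 in the same order. In each gene the palmitic acid array was alone on its side, high for Ticam1 and low for Ticam2, and the other arrays lay within 0.19 of each other. TRIF is the adaptor of TLR3 and, with TRAM, of TLR4 from endosomes, and leads to interferon regulatory factors as well as NF-kB. Myd88, the adaptor shared by most of the receptors, lay at 12.53 in the control, 12.44 with palmitic, 12.57 with oleic and 12.62 with linoleic acid. Tirap, which links MyD88 to TLR2 and TLR4, differed from the control by -0.21, 0.03 and 0.06.

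**Figure D3:**
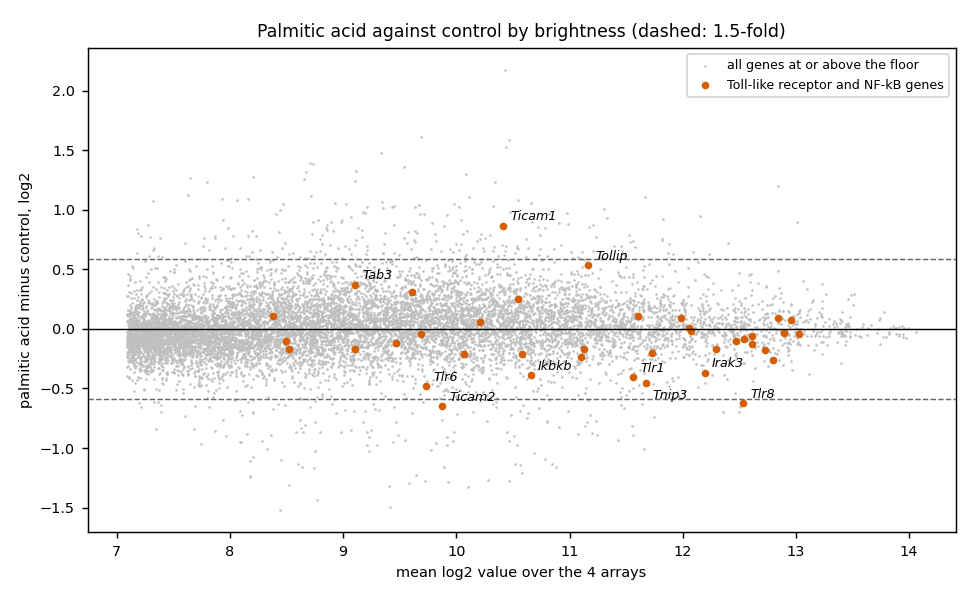
Palmitic acid minus control in log2 (y axis) against the mean log2 value over the 4 arrays (x axis) for all 10753 genes at or above the floor (grey) and the 39 measured Toll-like receptor and NF-kB genes (orange), with dashed lines at 1.5-fold and names at members beyond the lenient threshold. Differences narrow with brightness, and Ticam1, Ticam2 and Tlr8 are the members beyond the dashed lines.

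Differences were smaller in brighter genes. Among genes with a mean at or above 12 the median absolute difference of palmitic acid from the control was 0.083 over 626 genes and 0.093 over the 15 members. Below 12 it was 0.13 over 10127 genes and 0.21 over 24 members. Tlr8 was the member among the brighter 15 that passed 1.5-fold, and 11 of the 626 genes did so.

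The kinase steps between adaptor and NF-kB were mixed. Tab3, a subunit that tethers TAK1 to ubiquitin chains, was 0.37 above the control with palmitic acid, and Traf6, the ubiquitin ligase that makes such chains, was 0.25 above it. The oleic and linoleic acid differences were 0.10 and 0.07 for Tab3 and 0.11 and 0.12 for Traf6. Irak1 (-0.04, 0.02 and 0.05 with palmitic, oleic and linoleic acid), Irak2 (-0.02, 0.11 and 0.14), Tab2 (-0.13, 0.02 and 0.07) and the TAK1 gene Map3k7 (0.06, -0.01 and 0.10) stayed within 0.14 of the control.

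The measured genes of the IkB kinase complex went in opposite directions with palmitic acid. Ikbkb, which codes for the catalytic subunit of the canonical route, lay at 10.75 in the control, 10.36 with palmitic, 10.62 with oleic and 10.89 with linoleic acid. Ikbkg, which codes for the regulatory subunit NEMO, lay at 9.58, 9.88, 9.29 and 9.69. Palmitic acid was thus the low array for Ikbkb and the high array for Ikbkg, and oleic acid was the low array for Ikbkg.

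NF-kB subunit genes lay close to the control, with differences from the control between -0.12 and 0.20 in every array. Rela, which codes for the main activating subunit p65, lay at 12.06 in the control, 12.06 with palmitic, 11.96 with oleic and 12.13 with linoleic acid. All 4 measured subunits (Nfkb2, Rel, Rela and Relb) were below the control with oleic acid and above it with linoleic acid, also under the alternative scalings. Beside this, 44.5% of all genes were below with oleic and 65.5% above with linoleic acid. After median centring and repeated quantile normalisation 37.0% and 43.4% of all genes were below with oleic acid. With linoleic acid 47.2% and 50.8% of all genes were then below the control. The largest difference among the subunits was that of Relb, a subunit of the alternative route, at 0.20 with linoleic acid, beside -0.12 with palmitic and -0.07 with oleic acid. Of the interferon regulatory factor genes, Irf3 differed by -0.17, 0.04 and 0.07 and Irf5 by 0.09, 0.06 and 0.05 with palmitic, oleic and linoleic acid.

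IkB proteins hold NF-kB in check, and Nfkbia, a prompt NF-kB target, is often read as a sign of NF-kB activity. Nfkbia lay at 13.01 in the control, 12.97 with palmitic, 13.10 with oleic and 13.04 with linoleic acid, a spread of 0.14. Nfkbib differed from the control by 0.08, -0.0046 and 0.02, and Nfkbie by -0.24, -0.04 and 0.12. Nfkbiz codes for the nuclear IkB zeta, which is needed for induction of a subset of NF-kB targets such as Il6. It lay at 11.82 in the control, 11.62 with palmitic, 11.51 with oleic and 11.96 with linoleic acid, so that palmitic and oleic acid were the low arrays.

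Feedback inhibitors differed in direction. Tollip, whose product restrains IRAK1, lay at 11.01 in the control, 11.55 with palmitic, 11.04 with oleic and 11.05 with linoleic acid. Tnip3, which codes for the A20-binding protein ABIN-3, lay at 11.78, 11.33, 11.70 and 11.88 in that order. The palmitic acid array was alone in each, high for Tollip and low for Tnip3. Irak3, which codes for the kinase-dead inhibitor IRAK-M, was also lower with palmitic acid, by -0.37, beside -0.05 and 0.07. Tnfaip3, the A20 gene and a classic NF-kB target, lay at 12.80 in the control, 12.89 with palmitic, 12.76 with oleic and 12.90 with linoleic acid. Its partner gene Tnip1 differed by -0.17, 0.0040 and 0.05.

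Some genes of the route are themselves NF-kB targets, so their promoters were read for the letters that NF-kB is known to bind, and a few are shown so that these can be seen in place. The kB consensus of 10 bases was searched on both strands, overlaps included, in RefSeq promoter windows (250 bases before to 50 after the gene start, build GRCm38.p6), which held 34 of the 44 listed genes. It was found in 11 of the 34 (32.4%) and in 5.14% of all 27025 genes with a window. Shown in capitals are the matches in the 5 measured members with the widest range over the arrays among those with a match, with overlapping matches run together. Where a gene has several windows, that with the most matches is shown.
Tnip3, GRCm38.p6 chr6:65590148-65590447, plus strand: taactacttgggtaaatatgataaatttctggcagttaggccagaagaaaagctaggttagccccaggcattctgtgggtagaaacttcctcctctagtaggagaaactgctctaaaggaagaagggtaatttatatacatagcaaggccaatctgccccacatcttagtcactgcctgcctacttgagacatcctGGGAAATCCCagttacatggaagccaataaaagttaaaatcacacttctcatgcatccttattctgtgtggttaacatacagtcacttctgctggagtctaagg
Nfkbie, GRCm38.p6 chr17:45555450-45555749, plus strand: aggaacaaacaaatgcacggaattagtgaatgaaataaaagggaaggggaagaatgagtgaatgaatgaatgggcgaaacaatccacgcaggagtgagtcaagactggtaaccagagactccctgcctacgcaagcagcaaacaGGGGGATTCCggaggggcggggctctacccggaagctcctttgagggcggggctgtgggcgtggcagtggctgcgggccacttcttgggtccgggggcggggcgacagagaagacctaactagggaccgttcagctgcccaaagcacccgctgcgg
Tlr3, GRCm38.p6 chr8:45410331-45410630, minus strand: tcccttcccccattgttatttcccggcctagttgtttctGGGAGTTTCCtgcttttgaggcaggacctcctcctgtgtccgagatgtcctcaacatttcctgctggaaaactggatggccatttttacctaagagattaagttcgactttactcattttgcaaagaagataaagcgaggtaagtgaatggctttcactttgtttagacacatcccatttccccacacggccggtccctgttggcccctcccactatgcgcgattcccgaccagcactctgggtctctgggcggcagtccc
Nfkb2, GRCm38.p6 chr19:46304487-46304786, plus strand: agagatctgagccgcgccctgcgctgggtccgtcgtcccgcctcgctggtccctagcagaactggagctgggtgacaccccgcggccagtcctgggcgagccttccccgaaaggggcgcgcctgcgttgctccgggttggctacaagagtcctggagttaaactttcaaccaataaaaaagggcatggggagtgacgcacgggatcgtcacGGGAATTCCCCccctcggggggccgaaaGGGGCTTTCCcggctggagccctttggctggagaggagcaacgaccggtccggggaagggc
Tnip1, GRCm38.p6 chr11:54962891-54963190, minus strand: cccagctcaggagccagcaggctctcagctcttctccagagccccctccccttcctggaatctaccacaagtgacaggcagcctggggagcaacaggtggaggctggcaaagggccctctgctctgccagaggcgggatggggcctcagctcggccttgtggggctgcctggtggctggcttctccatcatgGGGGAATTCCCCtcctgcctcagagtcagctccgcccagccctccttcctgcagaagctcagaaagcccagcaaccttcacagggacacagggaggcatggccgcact

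Counted from the gene start at 0, the match began at -54 in Tnip3, -106 in Nfkbie and -211 in Tlr3. Nfkb2 had overlapping matches at -39 and -38 and another at -11, and Tnip1 had overlapping matches at -58, -57 and -56. Nfkbia held GGAAATTCCC at -29, a match on the opposite strand, and Tnfaip3 held GGAAATCCCC at -12, likewise on the opposite strand, and GGGACACCCC at -125. The other genes with a match were Rel, Tlr2, Map3k7 and Traf3. A match describes these letters and is not evidence of binding.

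Set beside the values, the 10 measured members with a match had palmitic acid differences from -0.45 (Tnip3) to 0.09 (Tnfaip3), with a median of -0.08. Of these 10, 0 were beyond 1.5-fold, beside 2.19% of all genes higher and 1.39% lower, so a count of 0 among so few says little. The 20 measured members with a window and no match ran from -0.62 (Tlr8) to 0.87 (Ticam1), with a median of -0.03. Of these 20, 1 was higher and 1 lower by at least 1.5-fold. Linoleic acid differences lay between 0.03 and 0.12 for the 10, with a median of 0.09, and between -0.01 and 0.19 for the 20, with a median of 0.07.

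The fatty acids were then compared with each other at the same concentration and time, in 3 pairs. Palmitic and oleic acid differ in chain length and in 1 double bond. Between their arrays 2 members were higher with palmitic acid by 1.5-fold or more (Ticam1 by 0.82 and Ikbkg by 0.59), beside 1.84% of all genes, and 1 was lower (Tlr8 by -0.60), beside 1.68%. Ticam2 lay just outside at -0.58, and the pair at the edge traded places after median centring (Ikbkg 0.58, Ticam2 -0.59) and after repeated quantile normalisation (0.54 and -0.64). At the lenient threshold 3 were higher (Ticam1, Ikbkg and Tollip), beside 9.5% of all genes, and 5 were lower (Tlr8, Ticam2, Cd14, Tnip3 and Irak3), beside 7.39%. Irak3 and Tlr4, both at -0.32, lay just inside and just outside. Of all genes beyond the lenient threshold 56.2% were higher with palmitic acid, and 41.1% after repeated quantile normalisation.

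Palmitic and linoleic acid, which differ in chain length and in 2 double bonds, had the median furthest from 0 among the 3 pairs. Ticam1 was higher with palmitic acid by 0.68, beside 1.62% of all genes at least 1.5-fold higher, and Ticam2 (-0.76) and Tlr8 (-0.70) were lower, beside 1.99%. At the lenient threshold 2 were higher (Ticam1 and Tollip), beside 5.96%, and 9 were lower, 23.1% of the 39 beside 7.15% of all genes. The 9 were Ticam2, Tlr8, Tlr1 (-0.57), Tnip3 (-0.56), Ikbkb (-0.53), Tlr6 (-0.49), Irak3 (-0.44), Nfkbie (-0.36) and Nfkbiz (-0.34). With each array centred on its median, 3 were higher, beside 7.80% of all genes, and 7 lower, beside 5.44%. Over all genes 45.5% of those beyond the lenient threshold were higher, and 58.9% after centring. The median member difference was -0.18, beside -0.03 over all genes.

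Oleic and linoleic acid share a chain length and differ by 1 double bond. Here 0 members passed 1.5-fold, beside 0.335% of all genes higher and 0.716% lower with oleic acid. At the lenient threshold 0 were higher (2.46% of all genes) and 4 were lower with oleic acid, beside 3.93%. These were Nfkbiz (-0.46), Tlr1 (-0.46), Ikbkg (-0.40) and Tlr6 (-0.36). After each alternative scaling 3 were lower, beside 2.52% of all genes with centring and 2.75% after repeated quantile normalisation. The share of higher genes among all beyond 1.5-fold was 31.9%, but 46.8% with centring and 48.6% after repeated quantile normalisation, and at the lenient threshold 38.5%, 61.0% and 58.8%. No interval can be given for any of these differences, so that closeness of 2 arrays does not show that the fatty acids act alike.

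Across the 3 fatty acid arrays 20 of 39 members, 51.3%, lay in rising order from palmitic through oleic to linoleic acid, beside 20.6% of all genes, and 3 (Tlr13, Tab3 and Irf5) ran the other way, beside 11.8%. This order was looked at after the values were seen. The 20 included Tlr1, Tlr2, Tlr6, Tlr7, Tlr8, Myd88, Tirap, Ticam2, Ikbkb, Nfkb2, Relb, Irak3, Tnip1 and Tnip3. The linoleic acid array has a slightly higher median over all probes (7.13, beside 7.07 to 7.09), and after median centring 13 members (33.3%) lay in rising order, beside 13.5% of all genes, and 6 (15.4%) in falling order, beside 17.9%. Of the original 20, 12 were among the 13, and Myd88, Tirap and Tnip1 were among the 8 that were not. After repeated quantile normalisation 17 members (43.6%) lay in rising order, beside 16.7% of all genes, 16 of them from the original 20, and 4 (10.3%) in falling order, beside 13.5%.

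**Figure D4:**
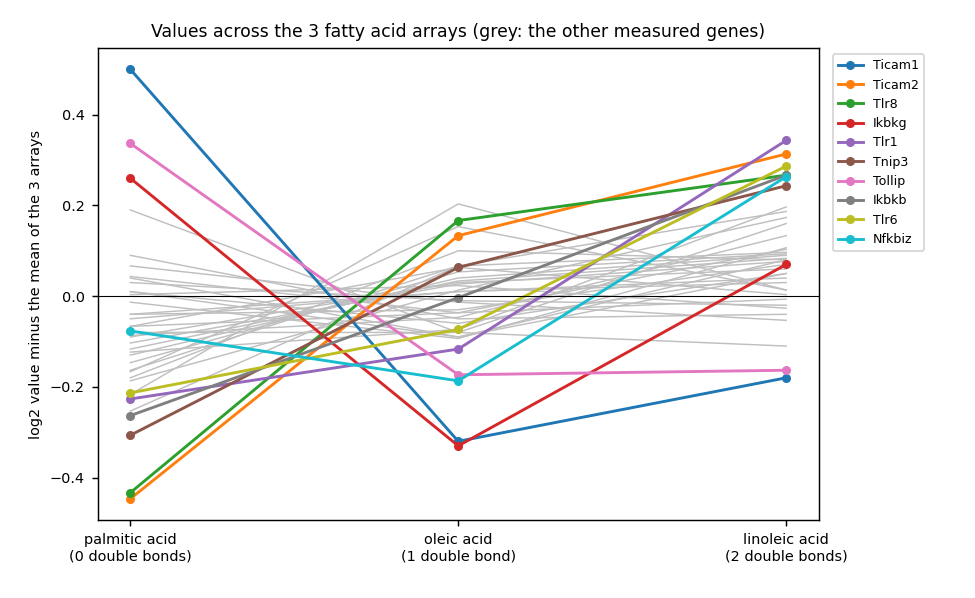
Log2 value minus the mean of the 3 fatty acid arrays (y axis) for the 39 measured genes in the palmitic, oleic and linoleic acid arrays (x axis, 0, 1 and 2 double bonds), with the 10 genes of widest range over the 4 arrays in colour and 1 array per point; lines join points of a gene and are no trend fit. Ticam1, Tollip and Ikbkg are highest with palmitic acid, and Ticam2, Tlr8, Tnip3, Ikbkb, Tlr1 and Tlr6 climb from palmitic to linoleic acid.

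Palmitic acid held the lowest of the 4 values in 23 of 39 members (59.0%), beside 37.6% of all genes, in 24 (61.5%, beside 33.4%) after median centring and in 24 (61.5%, beside 42.6%) after repeated quantile normalisation. Linoleic acid held the highest value in 26 members (66.7%), beside 28.9% of all genes, in 15 (38.5%), beside 17.4%, after median centring, and in 21 (53.8%), beside 20.0%, after repeated quantile normalisation. With linoleic acid 3 of 39 members were below the control, beside 34.4% of all genes. These were 9 members, beside 47.2%, after median centring and 7, beside 50.8%, after repeated quantile normalisation.

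Further genes of the pathway gave a frame for the members. Of 116 listed in 6 groups 101 reached the floor. With palmitic acid 3 were at least 1.5-fold higher than the control, beside 2.19% of all genes, and 3 were lower, beside 1.39%. The 3 higher include Fos, whose control value is below the floor. The 101 had a median of -0.0037. Between palmitic and oleic acid 2 of the 101 were higher with palmitic acid, beside 1.84% of all genes, and 6 lower, beside 1.68%. Between palmitic and linoleic acid 2 were higher, beside 1.62%, and 5 lower, beside 1.99%. Against the control 1 of 18 other inhibitors passed, Bcl3, which was lower with palmitic acid, beside 1.39% of all genes. Bcl3 codes for a nuclear IkB protein and lay at 11.25 in the control, 10.65 with palmitic, 11.30 with oleic and 11.43 with linoleic acid. Of 23 other adaptors, kinases and ubiquitin enzymes 0 passed against the control, beside 2.19% of all genes higher and 1.39% lower with palmitic acid. After repeated quantile normalisation 1 did so with palmitic acid, Ikbke (-0.60), beside 1.66% of all genes lower. Ikbke, which codes for a kinase of interferon regulatory factors, otherwise lay closest at -0.57, beside 0.22 and 0.21 with oleic and linoleic acid. With palmitic acid Ikbke did pass against oleic acid (-0.79) and linoleic acid (-0.78). Peli1, a ubiquitin ligase gene, differed from the control by 0.45, -0.10 and 0.08. Of 10 other receptor and trafficking genes 0 passed against the control, beside 2.19% of all genes higher and 1.39% lower with palmitic acid. Nod2 differed from the control by 0.05, -0.12 and 0.26 and Ly86 by -0.23, -0.03 and -0.13.

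Target genes of NF-kB showed both directions with palmitic acid, with more of them lower. Of 28 kept targets 1 was at least 1.5-fold higher, Plau, the urokinase gene (0.90), beside 2.19% of all genes. The 2 lower were Csf2 (-1.52) and Il6 (-0.59, which no longer passed after median centring), beside 1.39%. At the lenient threshold 2 were higher, beside 8.84% of all genes, and 7 were lower, beside 5.47%. In all 18 of the 28 were below the control with palmitic acid, beside 49.2% of all genes as deposited and 57.7% after repeated quantile normalisation. The lean was not particular to palmitic acid. With oleic acid 19 of the 28 were below, beside 44.5% of all genes, and with linoleic acid 11, beside 34.4%. The list median was -0.06 with palmitic, -0.05 with oleic and 0.01 with linoleic acid. With oleic acid Il23a passed, at 0.62, beside 0.391% of all genes higher.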

How the data were processed

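Gene expression was measured in 4 samples of mouse peritoneal macrophages, 1 array of 100 ng RNA pooled from 3 samples (RNA integrity number above 8.0) for each group. The authors deposited log2 expression values. Per the submitters' processing notes RMA was used, a method of background correction, quantile normalisation and probe summary. For its version and the build, nothing is given in the sources used here, and the log2 unit was read from the values. The platform annotation lists 23410 of 35556 probes, 21789 with 1 gene and 1621 with several. By Entrez ID 21698 matched a RefSeq table of GRCm38.p6, and 0 symbols changed.

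Probes of exactly 1 gene were averaged per gene, with Python 3.11.15 and pandas 2.3.3. Genes were kept where the mean over the 4 arrays reached the median of the whole table. Differences were taken in 6 comparisons and counted at 1.5-fold and at 0.32 in log2, with no test, since no group has a second array. The counting was tested on simulated data. A filter on the highest value, which admits genes through the array where they are high, was kept as an alternative.

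Members, lists, named genes and alternatives were chosen with earlier results of these data known. Given in every array are the members beyond 1.5-fold in any comparison, the 10 of widest range, and Tlr4, Tlr2, Cd14, Myd88, Rela, Nfkbia and Tnfaip3 (Nfkb1, also in this rule, was not measured). Of each further list, the genes beyond 1.5-fold against the control are named or, with none, the 2 furthest from it. Summed marker signals add values taken off the log2 scale.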

Additional observations from a re-analysis of the deposited data

How the results depend on the processing

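Each count, median and member difference was recomputed under 7 alternatives: centring, repeated quantile normalisation, no filter, a filter on the highest value, a filter at the 75th percentile, the brightest probe per gene, and low values raised to the floor. Of 224 alternative values of the members' counts and medians 218 stayed close to the reported value (counts within 1.5 times, medians within 0.1), although the median oleic acid difference from the control, -0.0093, was 0.011 after median centring. The other 6 all came from scaling. Between palmitic and oleic acid the members 1.5-fold higher numbered 1 in place of 2, and those lower 2 in place of 1, after median centring and likewise after repeated quantile normalisation. The members in rising order from palmitic to linoleic acid were 13, and those in falling order 6, after median centring. Of 714 alternative values of the 17 members given in every array 709 stayed on their side of 1.5-fold, and no difference past 1.5-fold changed sign. Among smaller differences 12 values changed sign, all under the scalings, and none of these was further than 0.054 from 0 as reported. The exceptions were Ikbkg and Ticam2 between palmitic and oleic acid under both scalings, and Tlr1 between palmitic and linoleic acid (-0.59 after repeated quantile normalisation). The 75th percentile filter left 36 members. Each member has 1 probe above the floor, so the changes of filter, the brightest probe and the raised floor could not alter any member difference. Only centring and repeated quantile normalisation could do so. Most of the 709 and of the 218 unchanged values were thus fixed in advance and do not measure stability.

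No paired analysis was possible because each group holds 1 array. For the same reason no replicate was left out, and precision is limited by having 4 arrays in all.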

Other observations

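The MAP kinase and interferon arms branch from the same receptors. Of 12 MAP kinase arm genes at or above the floor 2 were higher with palmitic acid by 1.5-fold or more, beside 2.19% of all genes. Both code for transcription factors at the end of that arm. Jun, an AP-1 subunit gene, lay at 9.99 in the control, 11.52 with palmitic, 10.20 with oleic and 10.02 with linoleic acid. Fos, its partner, lay at 6.84, 7.48, 7.42 and 6.97. Its control and linoleic acid values are below the floor, so its mean reached the floor through the palmitic and oleic acid arrays. With low values raised to the floor Fos no longer passed. The other 10 held 0 genes beyond 1.5-fold, and the arm had a median of 0.02.

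Of 10 interferon arm genes 0 passed 1.5-fold against the control with palmitic acid, beside 2.19% of all genes higher and 1.39% lower. Likewise 0 passed with oleic acid, beside 0.391% of all genes higher and 0.335% lower. With linoleic acid 0 passed, beside 0.0372% higher and 0.0372% lower. A count of 0 among 10 genes says little beside such shares. Ifnar1, which codes for a chain of the type I interferon receptor, differed by -0.40, -0.05 and 0.05, and Sting1, which codes for an adaptor of cytosolic DNA sensing, by -0.30, 0.36 and -0.05. Between palmitic and oleic acid Sting1 was lower with palmitic acid by -0.66. Ifnb1, which TRIF signalling induces, was below the floor in all 4 arrays, from 5.77 to 6.02.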
